A study of Mus musculus with 11 samples.

Results

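The genes described here are the nuclear-encoded genes of mitochondrial oxidative phosphorylation, 94 of the 77179 gene IDs in the deposited table. They were chosen by symbol, with older or newer names: the Ndufa, Ndufb, Ndufc, Ndufs and Ndufv genes with Ndufab1, Sdha to Sdhd, the Uqcr and Uqcc genes, Cyc1, the Cox4 to Cox8 genes and the Atp5 genes, without assembly factors, pseudogenes and genes of the mitochondrial genome. By complex, 37 belong to complex I, 4 to complex II, 9 to complex III, 20 to complex IV and 19 to complex V, and 5 match by name but are not subunits (Uqcc1, Uqcc2, Uqcc3, Atp5s and Dmac2). The tested members number 91, since Cox8b, Cox8c and a second ID of Atp5o were too low.

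The RNA was from NEX-RiboTag mice (cortex together with hippocampus), in which Cre expressed from the Neurod6 (NEX) gene turns on eGFP-Rpl10a, a tagged ribosomal protein, in excitatory neurons. Ribosomes were pulled down with anti-GFP beads and washed in high salt, and the RNA bound to them (IP) was sequenced in 3 libraries, called biological replicates in the labels, at each of postnatal days 7, 14 and 21 (P7, P14 and P21). Every IP library came from the genotype NEX-Cre;Rpl10aeGFP/eGFP. Whole-tissue RNA (input) was sequenced only at P7, in 2 libraries of which replicate 1 had that genotype and replicate 2 was Rpl10aeGFP/eGFP without Cre. The labels do not say how many animals a library pooled.

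The respiratory chain passes electrons from NADH (complex I) and succinate (complex II) through ubiquinone, complex III and cytochrome c to oxygen at complex IV, and the proton gradient this builds drives ATP synthase, complex V. Complexes I, III, IV and V mix a few subunits made inside the mitochondrion with many imported ones, and complex II is wholly imported. Catalytic centres sit on a small set of core subunits, around which lie supernumerary subunits that stabilise or tune the enzyme, and several complex IV subunits come as ubiquitous and tissue-restricted isoforms. Neurons draw most of their ATP from this pathway, and demand in the forebrain grows as synapses form after birth.

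Values are TPM, transcript abundances scaled for length and library total. TPM keep no read number, so depth is unknown and the precision shown is that of the spread between replicates. Changes are differences in mean log2(TPM + 1) ± SE from a limma fit across 19008 genes, a scale that understates changes of low genes, and a gene rose or fell where the Benjamini-Hochberg adjusted p was below 0.05. The number of genes at 1 TPM or more ran from 15154 to 17793 per library. Summed TPM of the markers of other cells was lower in P7 IP than in input: 42.1 to 47.0 against 583 and 706 for 5 inhibitory neuron genes (5 of 5 lower), and 36.8 to 56.5 against 614 and 671 for 6 astrocyte genes (6 of 6 lower). Of 6 excitatory neuron markers 2 were higher in P7 IP and 1 was lower. In bulk libraries, fewer cells of a type and less RNA per cell cannot be told apart.

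Together the 89 subunit genes took up 3.15% and 3.32% of all TPM in the input libraries, 4.65% to 5.01% in P7 IP, 5.96% to 6.05% in P14 IP and 6.64% to 7.06% in P21 IP. The 4 groups did not overlap. Summed TPM of complex IV grew most between P7 and P21 IP, from 13850 ± 1130 to 23540 ± 707 (SD, n = 3 each; 1.7-fold), followed by complex III from 5999 ± 237 to 9372 ± 372 (1.56-fold). Complex I went from 12450 ± 347 to 16600 ± 760 (1.33-fold) and complex V from 14990 ± 233 to 18770 ± 1060 (1.25-fold). Complex II differed least, with 675 ± 9.08 at P7, 772 ± 12.9 at P14 and 760 ± 16.3 at P21 (1.13-fold from P7 to P21). A sum is led by its most abundant genes. The median TPM of all 20 complex IV members, 8 of them low tissue isoforms, was 573 ± 30.3 at P7 and 554 ± 25.9 at P21. Of the other 12 members, 10 were higher at P21 than at P7 and none lower, with a median log2 change of 0.53. Of all genes tested, 27.3% were higher and 32.6% lower.

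**Figure D1:**
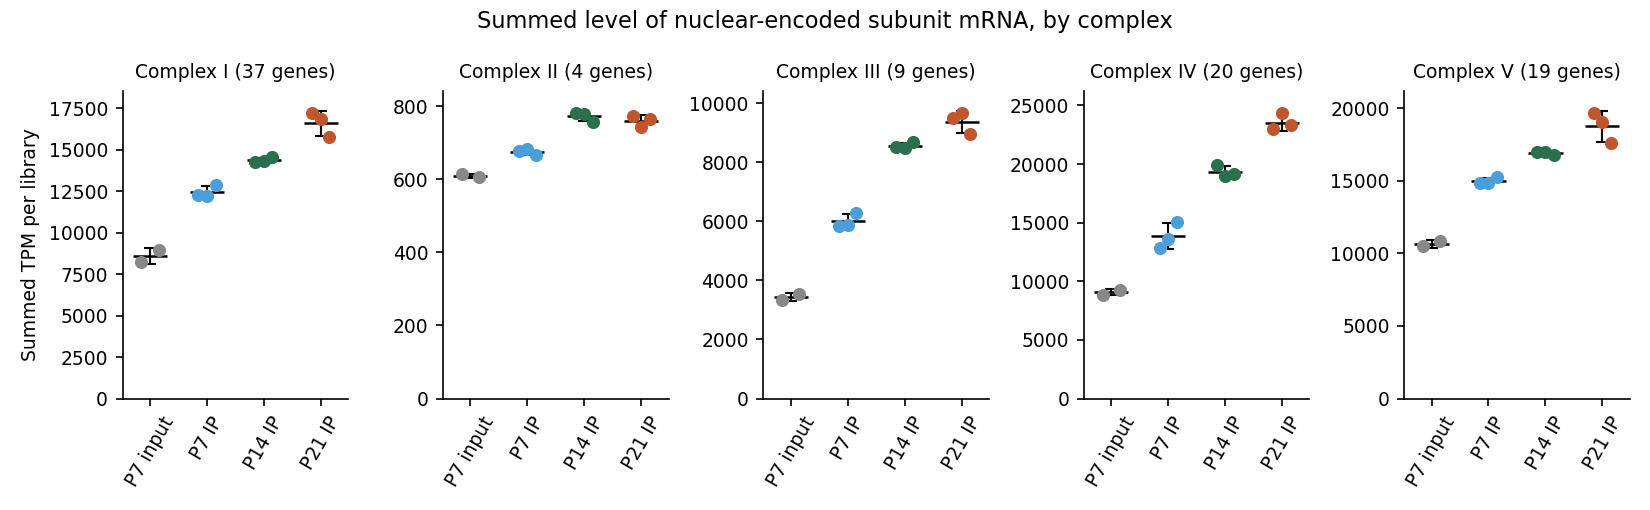
Summed TPM of the nuclear-encoded subunit genes of each complex in each of the 11 libraries, with the group mean (bar) and SD (whiskers; n = 2 for P7 input and 3 for each IP age). The axes start at 0. Complex IV climbs from 13850 in P7 IP to 23540 in P21 IP, while complex II stays between 665 and 780 in all IP libraries.

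The 13 subunit genes of the mitochondrial genome differed from their nuclear partners in the comparison of IP with input. They held 11.5% and 13.3% of TPM in the input libraries, 0.676% to 0.879% in P7 IP, 2.03% to 2.35% in P14 IP and 1.96% to 2.67% in P21 IP. Input was far above every IP library, which ran opposite to the nuclear-encoded genes. From P7 to P14 IP 13 of 13 rose, beside 26.7% of all genes. In the third week 3 rose and 1 fell, beside 8.53% and 19.7% of all genes. Mitochondrial transcripts are translated inside the organelle by ribosomes that lack Rpl10a, as background. Their share of the total lowers every other TPM value in input, and when they were taken out of the total with haemoglobin and ribosomal protein genes, 53 nuclear-encoded members were higher in P7 IP and 14 lower, beside 15.8% of all genes higher and 56.4% lower.

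Within a complex the members were far from equimolar. Over the 9 IP libraries, the most abundant complex I gene (Ndufa1, supernumerary, mean 1042 TPM) was 16.4-fold above the least abundant (Ndufs1, the large iron-sulphur core subunit). The range among genes of at least 20 TPM was 2.39-fold in complex II, 18.8-fold in complex III, 12.7-fold in complex IV and 99.4-fold in complex V, where Atp5g2 was lowest and Usmg5 highest. The order of the members held between groups: Spearman's rho of mean log2 level across the 91 tested members was 0.949 between input and P7 IP and 0.979 between P7 and P21 IP, with genes that share libraries and are not independent. Members of higher level also had larger IP to input changes (rho 0.581), and longer genes slightly smaller ones (rho -0.212 with genomic span).

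The first comparison sets the pull-down against whole tissue at P7. Of the 91 tested members 58 were higher in IP and 13 lower, where 18.6% of all genes tested were higher and 51.1% lower. The median change of the members was 0.34, and that of all genes tested was -0.33. With median-of-ratios scaling the median of all genes moved to 0.00, 32.9% of all genes were higher and 32.3% lower, and 82 members were higher and 4 lower. With quantile normalisation it moved to 0.03, with 32.9% of genes higher and 31.7% lower, and 43 members were higher and 25 lower. The direction of small changes therefore depended on the scaling, and 39 of the 58 and 4 of the 13 kept their call in each of 21 alternative fits.

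In complex I, 22 of 30 supernumerary genes were higher and 2 lower, with a median of 0.48. Of 7 core genes 2 were higher and 2 lower, with a median of -0.04. With median-of-ratios scaling 6 were higher and none lower (median 0.37). With quantile normalisation 1 was higher and 5 lower (median -0.25). The supernumerary median stood above the core median under both scalings (0.89 and 0.21), and the difference between these groups of genes was not tested. Ndufv3, a small supernumerary subunit of the NADH-binding module, read 384 and 402 TPM in input and 988, 956 and 1070 in P7 IP, a change of 1.35 ± 0.06 (adjusted p = 5.85e-08). Ndufs1 went the other way, with 61.3 and 64.2 TPM in input and 42.0, 41.8 and 42.5 in IP (-0.56 ± 0.07, adjusted p = 2.59e-05), although with median-of-ratios scaling it was -0.16 and no longer passed. Neither gene's groups overlapped. The core subunit Ndufv2 was higher by 0.79 ± 0.04, so in the main fit the core genes did not move as a block.

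Complex III genes also went both ways. Uqcrq, a small subunit beside cytochrome b, had 360 and 402 TPM in input and 918, 952 and 1019 in IP (1.34 ± 0.07, adjusted p = 1.25e-07). The small subunits Uqcr10 (1.11 ± 0.07), Uqcr11 (0.99 ± 0.06) and Uqcrh, the hinge protein (0.86 ± 0.07), were also higher. The large processing-peptidase-like proteins Uqcrc1 (-0.33 ± 0.06) and Uqcrc2 (-0.24 ± 0.06) and the Rieske iron-sulphur protein Uqcrfs1 (-0.28 ± 0.04) were lower, and each turned positive with median-of-ratios scaling; Uqcrc2 also lost its call without P7 input replicate 1. Cyc1, the cytochrome c1 of the catalytic centre, was 0.21 ± 0.08 (adjusted p = 0.043), -0.05 with quantile normalisation, and lost its call with either input library, P7 IP replicate 2, P14 IP replicate 1 or 2, or P21 IP replicate 2 left out.

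In ATP synthase the 5 small membrane subunits were each higher in IP, with a median of 0.72 (4 of 5 with quantile normalisation). They include Atp5mpl, with 911 and 950 TPM in input and 1977, 2063 and 2151 in P7 IP (1.15 ± 0.07, adjusted p = 2.27e-07). In F1, the catalytic head with the central stalk, the changes were unlike. The epsilon subunit Atp5e was higher by 1.21 ± 0.06, and the beta subunit Atp5b was -0.05 ± 0.07 (adjusted p = 0.542). The alpha subunit Atp5a1 was lower (-0.29 ± 0.04) but 0.12 with median-of-ratios scaling. Atpif1, the inhibitor that blocks ATP hydrolysis when the proton gradient fails, was higher by 0.49 ± 0.05.

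Complex II, which also belongs to the citric acid cycle, had 3 genes higher and 1 lower in IP. Sdha, the flavoprotein that oxidises succinate, had 112 and 114 TPM in input and 66.2, 73.0 and 73.7 in P7 IP (-0.67 ± 0.06, adjusted p = 2.52e-06), and it was lower in every alternative fit. The iron-sulphur subunit Sdhb (0.29 ± 0.05; 0.03 and not called with quantile normalisation) and the membrane anchor Sdhc (0.41 ± 0.07) were higher, as was the other anchor Sdhd (0.14 ± 0.05, adjusted p = 0.0226, and -0.09 with quantile normalisation), a call lost without P7 input replicate 1 or P7 IP replicate 3. Of 18 genes of the citric acid cycle and pyruvate dehydrogenase, 17 were lower in IP and none higher, with a median of -0.45. Of all genes 51.1% were lower and 18.6% higher, with a median of -0.33. With median-of-ratios scaling 4 of the 18 were lower and 4 higher, beside 32.3% and 32.9% of all genes. With quantile normalisation 14 of the 18 were lower and none higher, beside 31.7% and 32.9%. The summed TPM of those 18 genes was 2080 and 2120 in input and 1480 to 1570 in P7 IP.

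Among complex IV genes, 10 of the 12 ubiquitous or main forms were higher in IP and none lower. Cox8a, the ubiquitous form of a small membrane subunit, had 1061 and 1154 TPM in input and 2188, 2493 and 2868 in P7 IP (1.18 ± 0.10, adjusted p = 3.49e-06), with no overlap. The exceptions were Cox5a (0.03 ± 0.07) and Ndufa4 (0.10 ± 0.07), the subunit once assigned to complex I, neither of which passed. With quantile normalisation 6 of the 12 were higher and 2 lower: Cox5a (-0.27) and Ndufa4 (-0.22) passed as lower, and Cox4i1 (-0.00), Cox7b (-0.06), Cox6b1 (0.12) and Cox5b (0.02) were not called. The liver form Cox6a1, the abundant partner of the muscle form Cox6a2, had 1283 and 1315 TPM in input and 2094, 2163 and 2272 in P7 IP (0.74 ± 0.07, adjusted p = 3.72e-06), and was higher in every alternative fit.

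Of the 6 tested tissue-restricted isoforms of complex IV, 3 were lower in P7 IP than in input, 1 was higher and 2 were not called. These counts were near the shares of all genes tested, of which 51.1% were lower and 18.6% higher. Ndufa4l2, a hypoxia-inducible paralogue of Ndufa4, had 11.3 and 8.76 TPM in input and 1.64, 1.16 and 1.72 in P7 IP, a change of -2.14 ± 0.21 (adjusted p = 8.01e-06). Cox4i2, the oxygen-responsive form of Cox4i1 known from lung and vessels, had 4.32 and 4.92 TPM in input and at most 0.448 TPM in P7 IP (-2.11 ± 0.26, adjusted p = 3.3e-05). Cox6b2, a form best known from testis, had 9.94 and 11.4 TPM in input and 4.90, 4.53 and 5.26 in P7 IP (-0.99 ± 0.14, adjusted p = 7.8e-05). In the P7 input libraries these genes made up a mean of 1.13% of the Ndufa4 pair, 0.434% of the Cox4 pair and 1.41% of the Cox6b pair. Beside them, 6 of 6 mural and fibroblast markers were lower in P7 IP. Their summed TPM was 8.38 to 17.4 against 186 and 160 in input. All 4 endothelial, 5 microglia, 6 astrocyte and 5 oligodendrocyte markers were lower too. So were all 3 oligodendrocyte precursor, 4 blood and 5 inhibitory neuron markers. The part of any of these cells in the isoform values was not tested. Cox7b2, a paralogue of Cox7b, was the one that was higher, with 0.793 and 0.341 TPM in input and 1.30, 1.01 and 1.23 in P7 IP (0.49 ± 0.16, adjusted p = 0.017), a call lost without P7 input replicate 2. It reached at most 2.17 TPM at P14, and 1.71, 2.17 and 1.67 TPM at P21, where the change from P7 IP (0.38 ± 0.14, adjusted p = 0.0372) lost its call without P7 IP replicate 2 or 3 or P21 IP replicate 1 or 2. The muscle form Cox7a1 varied widely between replicates, with 4.35 and 5.51 TPM in input and 4.13, 5.98 and 1.98 in P7 IP (-0.32 ± 0.38), 5.71, 10.1 and 4.77 at P14 and 8.85, 5.88 and 4.29 at P21, and was called in no comparison. The other muscle form Cox6a2 (0.07 ± 0.17) was not called either but was 0.57 and higher with quantile normalisation (adjusted p = 0.0131), and the testis form Cox8c was listed at 0 in every library.

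**Figure D2:**
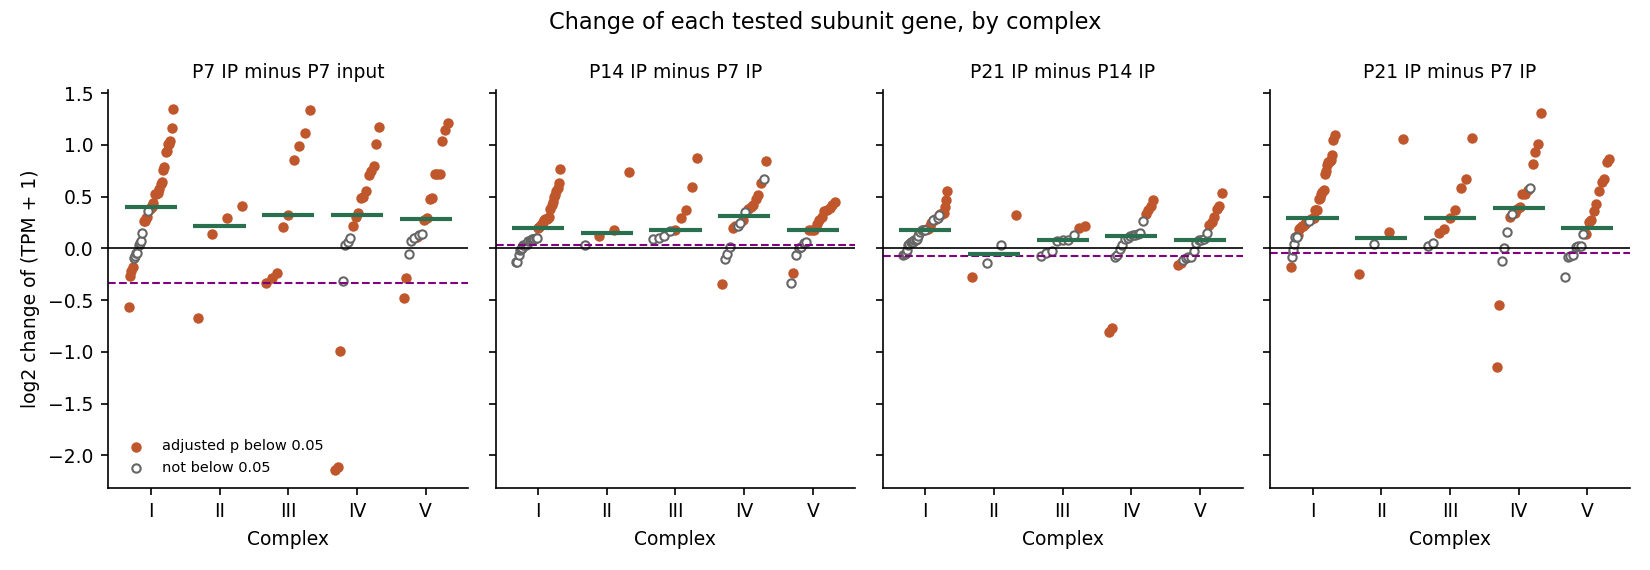
Log2 change of (TPM + 1) of each tested subunit gene (points, ordered by size within a complex) in 4 comparisons. Filled points passed adjusted p below 0.05, green bars are the median of a complex, the dashed line is the median of all 19008 genes and the solid line is 0. The medians of complexes I to V lie above the dashed line in the 4 comparisons, and the wide spread of complex IV in the first panel comes from Ndufa4l2 and Cox4i2 at the bottom.

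Across the second postnatal week, from P7 to P14 IP, 50 of the 91 tested members rose and 2 fell, beside 26.7% of all genes higher and 22.8% lower. The members' median was 0.20 against 0.03 for all genes. By complex the risers were 19 of 37 in complex I, 3 of 4 in complex II, 5 of 9 in complex III, 10 of 18 in complex IV and 11 of 18 in complex V. The 2 that fell were Atp5e (-0.24 ± 0.06, adjusted p = 0.00511) and Cox6b2 (-0.34 ± 0.12, adjusted p = 0.0379). The call of Cox6b2 was lost in 9 fits, among them those without P7 IP replicate 1 or 3 or any P14 IP library.

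The largest rise in complex III was that of Uqcr11, which encodes the smallest subunit of the enzyme. It had 1445, 1374 and 1504 TPM at P7 and 2666, 2597 and 2642 at P14 (0.87 ± 0.06, adjusted p = 1.09e-06). Uqcr10 rose with it by 0.59 ± 0.06. In complex IV, Cox8a went from 2188 to 2868 TPM at P7 to 4889, 4194 and 4441 at P14 (0.85 ± 0.09, adjusted p = 3.29e-05). The main form Cox4i1, through which ATP inhibits the enzyme, rose by 0.63 ± 0.07, Cox6c by 0.52 ± 0.07 and Cox6a1 by 0.42 ± 0.06. For Cox8a and Uqcr11 the lowest P14 library lay well above the highest at P7.

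The largest rises in complexes I and II were those of catalytic subunits that had been lower in P7 IP than in input. Ndufs1 had 42.0, 41.8 and 42.5 TPM at P7 and 74.7, 71.2 and 72.0 at P14 (0.77 ± 0.06, adjusted p = 2.85e-06). Sdha had 66.2, 73.0 and 73.7 TPM at P7 and 124, 119 and 115 at P14 (0.74 ± 0.05, adjusted p = 1.37e-06). Neither gene's P7 and P14 values overlapped. Sdhb (0.12 ± 0.04, adjusted p = 0.0396) lost its call without any 1 P7 or P14 IP library, and Sdhc (0.18 ± 0.06, adjusted p = 0.027) without P7 IP replicate 3 or P14 IP replicate 1 or 2. Next in complex I were the supernumerary Ndufa13, also known as GRIM-19 (0.63 ± 0.07), and the acyl carrier protein Ndufab1 (0.58 ± 0.11).

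In complex V, 3 of 5 F1 genes, 3 of 4 peripheral stalk genes and 4 of 5 membrane genes rose in the second week. With median-of-ratios scaling and with quantile normalisation these were 3, 2 and 2. Usmg5, which helps ATP synthase form dimers, had 1901, 2048 and 1950 TPM at P7 and 2616, 2840 and 2629 at P14 (0.45 ± 0.08, adjusted p = 0.000985). The delta subunit Atp5d (0.42 ± 0.05), Atp5b (0.39 ± 0.06) and the peripheral stalk subunit Atp5h (0.36 ± 0.05) rose. Of the 3 genes for the identical c subunit, Atp5g1 rose from 701, 725 and 797 TPM to 963, 933 and 970 (0.37 ± 0.06), Atp5g3 was 0.05 ± 0.07 and Atp5g2 was -0.34 ± 0.13 (adjusted p = 0.0528).

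Across the third week, from P14 to P21 IP, 32 members rose and 6 fell, beside 8.53% of all genes higher and 19.7% lower. The members' median was 0.13 and that of all genes -0.08. With median-of-ratios scaling 53 members rose and 3 fell, beside 14.4% and 12.0% of all genes. Complex I held 17 of the risers and none of those that fell, while complexes II, III, IV and V held 1, 2, 4 and 6 risers. Complexes I to V held 26, 2, 3, 10 and 9 risers with median-of-ratios scaling, and 17, 1, 0, 4 and 5 with quantile normalisation. At P21 replicate 3 was the lowest of the 3 libraries for Ndufc1, with 815, 725 and 406 TPM, and for Atp5k, Usmg5 and Ndufab1. Without it the third-week change of Ndufab1 (0.32 ± 0.11, adjusted p = 0.0556) became 0.48 (adjusted p = 0.000899), and that of Ndufc1 (0.30 ± 0.21, adjusted p = 0.321) became 0.60 (adjusted p = 0.00188).

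Ndufa5, a subunit of the matrix arm, had the largest third-week rise in complex I, from 377, 413 and 382 TPM to 596, 613 and 515 (0.55 ± 0.09, adjusted p = 0.00186). Ndufa13 rose again, by 0.47 ± 0.07, and reached 280, 277 and 253 TPM at P21. In complex V, Atp5k of the membrane part went from 909, 910 and 845 TPM to 1490, 1356 and 1051 (0.53 ± 0.11, adjusted p = 0.00486), Usmg5 rose by 0.41 ± 0.08 and the peripheral stalk gene Atp5j by 0.38 ± 0.05. Cox8a rose by 0.47 ± 0.09 to 6150, 6272 and 6227 TPM, the highest value of any member. No P14 and P21 values overlapped for these 6 genes.

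The 6 that fell in the third week were Sdhd, Cox6a2, Cox6b2, Atp5c1, Atp5f1 and Atp5s. Sdhd had 169, 182 and 173 TPM at P14 and 148, 142 and 141 at P21 (-0.28 ± 0.04, adjusted p = 0.000985), in the week in which Sdha rose by 0.32 ± 0.05. Cox6a2, the heart and muscle form, had 15.9, 14.8 and 16.8 TPM at P14 and 7.02, 11.4 and 8.65 at P21 (-0.77 ± 0.15, adjusted p = 0.00418). Cox6b2 fell to 2.22, 1.29 and 1.54 TPM (-0.81 ± 0.12, adjusted p = 0.000929). Atp5f1 of the peripheral stalk (-0.16 ± 0.04), the gamma subunit Atp5c1 (-0.14 ± 0.04) and Atp5s, which couples F1 to the membrane part (-0.34 ± 0.10), were not called with median-of-ratios scaling. Atp5f1 was also lost without P21 IP replicate 2, Atp5c1 without P14 IP replicate 2 or 3 or P21 IP replicate 2 or 3, and Atp5s without P14 IP replicate 1 or 3 or P21 IP replicate 1 or 2.

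**Figure D3:**
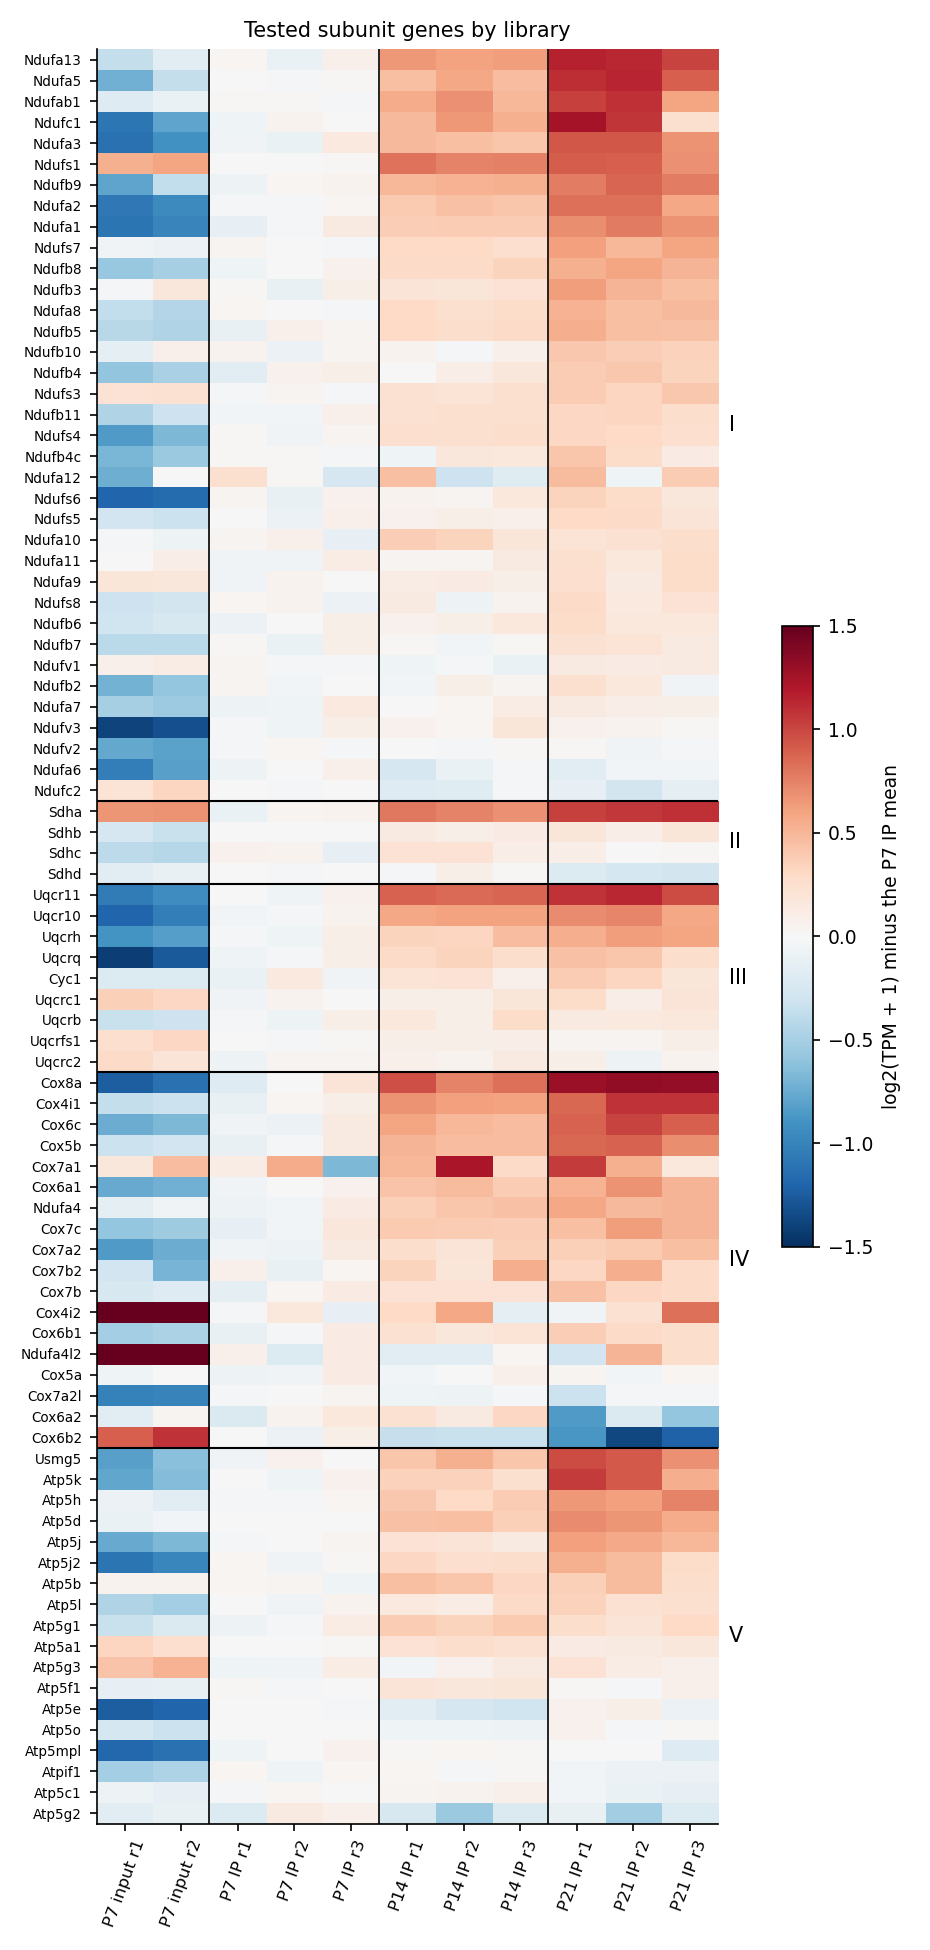
Log2(TPM + 1) of tested subunit genes, each minus its mean in P7 IP, in the 11 libraries (columns), with complexes I to V from top to bottom and genes ordered by their P21 mean; colours saturate at the ends of the scale. Most rows of complexes I, III and IV darken to red from P14 to P21, and Cox6b2, Cox6a2, Sdhd and Ndufc2 are blue at P21. P21 replicate 3 is paler than its group in rows such as Ndufc1 and Atp5k.

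Over both weeks, from P7 to P21 IP, 63 members were higher and 5 lower, where 27.3% of all genes were higher and 32.6% lower. With quantile normalisation 55 were higher and 12 lower, 4 of them in complex V, beside 29.1% and 31.2% of all genes. Medians were 0.29 in complex I, 0.10 in complex II, 0.30 in complex III, 0.39 in complex IV and 0.20 in complex V, against -0.04 for all genes. The greatest increases were those of Cox8a (1.31 ± 0.09), Ndufa13 (1.1 ± 0.07), Uqcr11 (1.07 ± 0.06), Sdha (1.06 ± 0.05), Ndufa5 (1.05 ± 0.09) and Cox4i1 (1.01 ± 0.07). Members lower at P21 were Cox6b2 (-1.15 ± 0.12), Atp5s (-0.56 ± 0.10), Cox6a2 (-0.55 ± 0.15), Sdhd (-0.25 ± 0.04) and Ndufc2 (-0.18 ± 0.06). Ndufc2, a subunit of the membrane arm, lost its call with median-of-ratios scaling and without P7 IP replicate 1 or 3 or P21 IP replicate 2. Of the 63 members 53, and of the 5 members 4, kept their call in each of the 21 alternative fits.

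Some members were not called between P7 and P21. Cox5a, a subunit on the matrix side of complex IV, had 546 to 628 TPM at P7, 559 to 605 at P14 and 559 to 591 at P21 (0.01 ± 0.06 over both weeks). Ndufv2 (-0.02 ± 0.04), Uqcrc2 (0.02 ± 0.06), Atp5o (0.01 ± 0.04) and Atpif1 (-0.07 ± 0.05) likewise did not pass, and the P7 and P21 values of each overlapped. With quantile normalisation Atp5o (-0.12, adjusted p = 0.0143), Atpif1 (-0.18, adjusted p = 0.0154) and Ndufv2 (-0.09, adjusted p = 0.0447) passed as lower at P21. A test over the 3 ages found a change in 71 of 91 members, 78.0%, beside 62.6% of all genes.

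The share of an isoform within its family changed in a few cases. Atp5g1 made up 45.0% and 45.4% of c subunit TPM in input, 57.5% to 57.8% in P7 IP, 62.1% to 64.8% at P14 and 58.8% to 61.6% at P21. Atp5g3 mirrored it, with 52.9% and 52.5% in input, 39.4% to 40.3% at P7, 33.4% to 36.2% at P14 and 36.6% to 39.3% at P21. For both genes the input, P7 and P14 shares did not overlap. Cox7a2l, a Cox7a paralogue that helps complexes III and IV join into supercomplexes, held 45.4% to 48.2% of the Cox7a family at P7, 40.6% to 42.1% at P14 and 35.6% to 40.1% at P21, as Cox7a2 rose. The share of Cox6a2 among Cox6a TPM was 0.542% to 0.662% at P7 and 0.225% to 0.327% at P21.

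**Figure D4:**
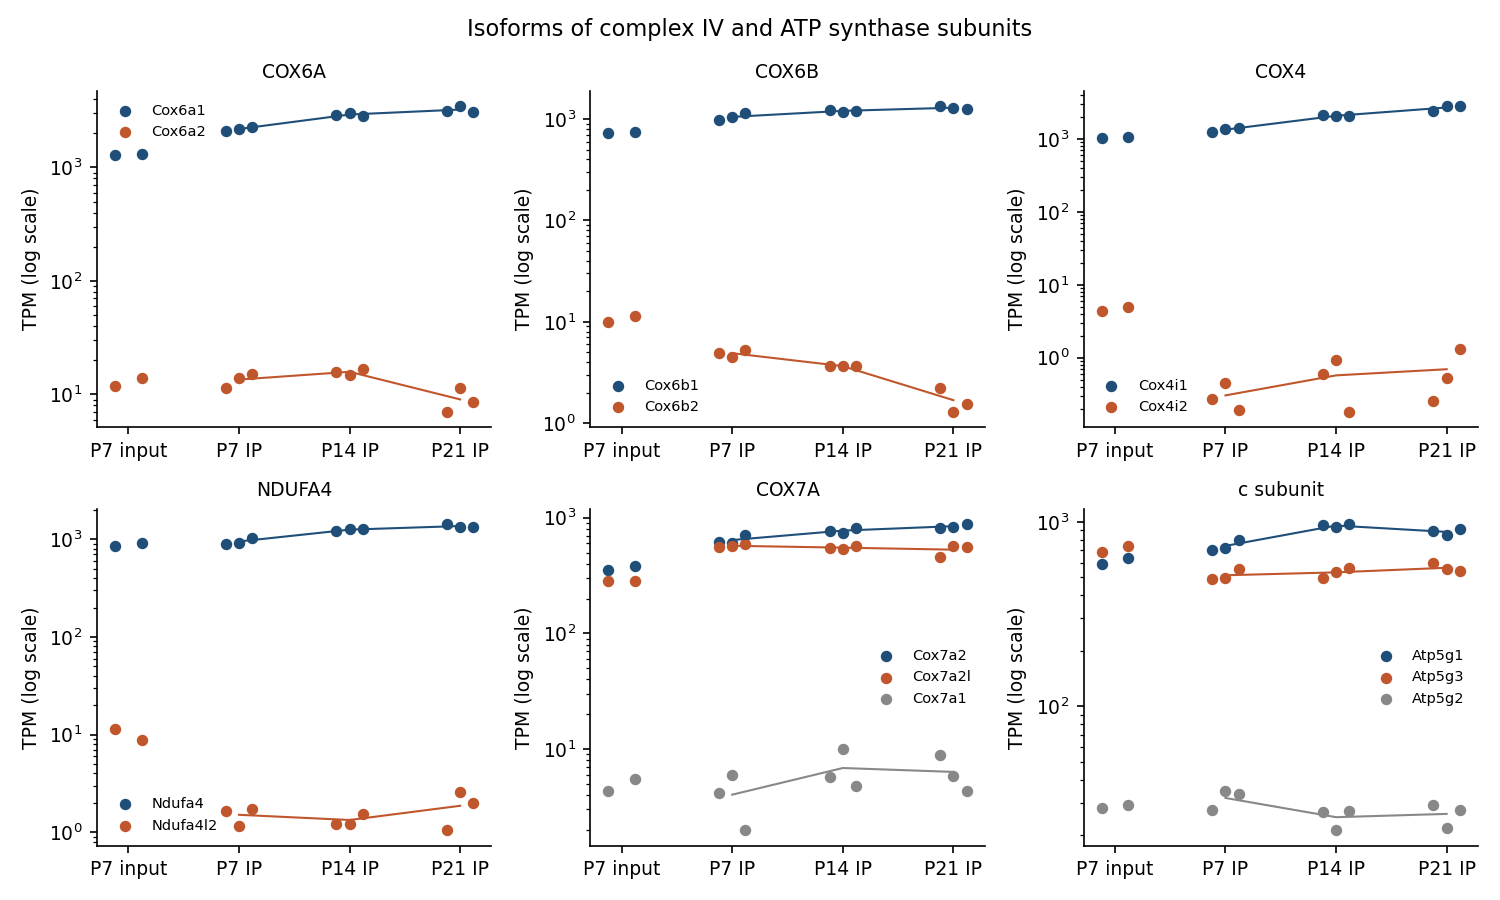
TPM of isoforms in 6 families, on log axes, with 1 point per library and lines through the IP means. In the COX6A, COX6B, COX4 and NDUFA4 panels the minor form makes up at most 0.662% of its pair in any IP library; Cox6b2 falls at each age, and Cox4i2 and Ndufa4l2 are highest in input.

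The test of the third-week change minus the second-week change asked whether both weekly changes were equal. It was negative in 12 members and positive in 3, beside 16.8% and 7.46% of all genes, whose median was -0.10. With median-of-ratios scaling the counts were 4 and 7, beside 10.7% and 11.8% of all genes, so the balance of negative and positive differences depended on the scaling. A negative difference can be a smaller rise or a fall after P14. The members with a negative difference in each of the 21 alternative fits were Ndufs1 (-0.71 ± 0.10, adjusted p = 0.0012), Uqcr11 (-0.68 ± 0.10, adjusted p = 0.00125) and Atp5g1 (-0.48 ± 0.10, adjusted p = 0.00695). Atp5g1 changed by 0.368 in the second week and by -0.115 in the third. Ndufs1 reached 80.0, 79.4 and 68.6 TPM at P21, overlapping its P14 values, after a third-week change of 0.06 ± 0.06. Uqcr11 changed by 0.20 ± 0.06 in the third week (adjusted p = 0.0274; -0.05 with quantile normalisation), a call lost without any 1 P14 library or without P21 IP replicate 1 or 2.

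Atp5e and Uqcc2 moved the other way in each alternative fit. Atp5e had 1430, 1432 and 1413 TPM at P7, 1265, 1197 and 1162 at P14 and 1488, 1520 and 1337 at P21, so its dip at P14 overlapped neither neighbour (0.50 ± 0.10, adjusted p = 0.00502). Uqcc2, an assembly factor for cytochrome b, had 745, 675 and 749 TPM at P7, 694, 681 and 689 at P14 and 1127, 1040 and 929 at P21 (0.65 ± 0.12, adjusted p = 0.00355). It rose by 0.58 ± 0.07 in the third week and overlapped between P7 and P14. The largest positive difference in complex I was that of the supernumerary Ndufb10, with 253, 231 and 252 TPM at P7, 255, 241 and 258 at P14 and 325, 317 and 311 at P21, which did not pass (0.30 ± 0.10, adjusted p = 0.0646; 0.47 and 0.0225 with median-of-ratios scaling) although its third-week rise did (0.34 ± 0.06, adjusted p = 0.00265).

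**Figure D5:**
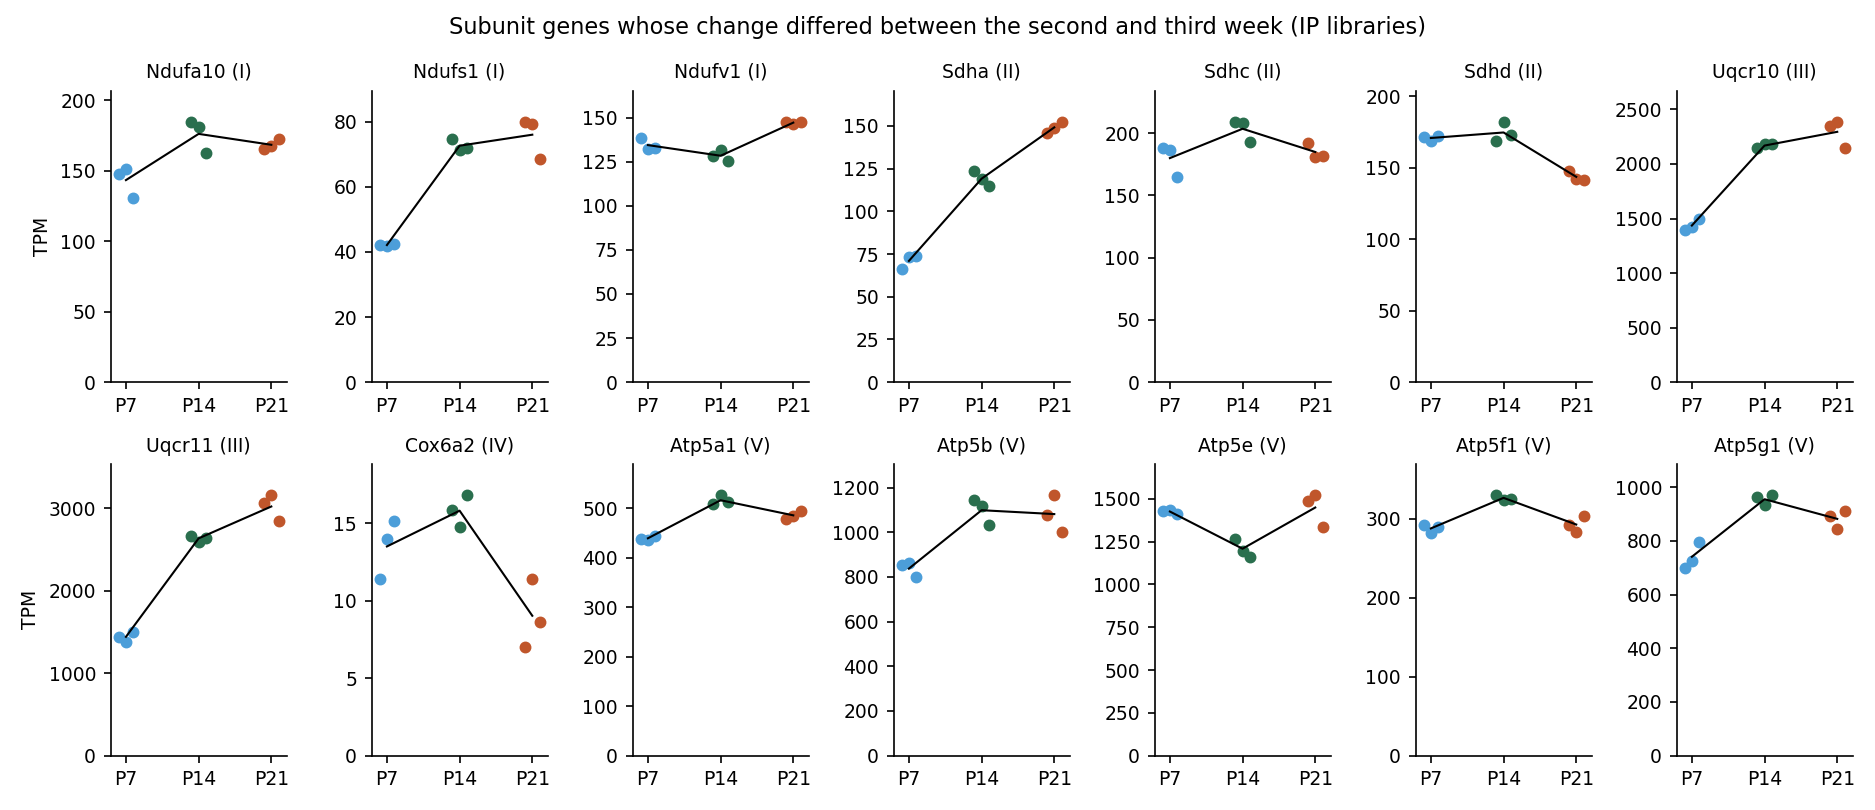
TPM in the IP libraries at P7, P14 and P21 of the 14 subunit genes whose second-week and third-week changes differed (1 point per library, line through the means, axes from 0). Ndufs1 levels off after P14, Atp5e dips at P14 from a mean near its P21 value, and Cox6a2 drops after P14.

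Promoter sequences were at hand from RefSeq (build GRCm38.p6) for 75 of the members' 93 symbols, as 81 windows from 250 bases before to 50 after the start of the gene, and are shown for 6 members whose level changed with age. Letters typical of factors known to bind respiratory chain promoters were searched on both strands. GCGCATGC, of nuclear respiratory factor 1, was in 10 of 75 genes (13.3%) and in 3.05% of all 27025 genes of the table; CCGGAAG, of ETS factors such as GABP, in 17 (22.7%) and 9.93%; ATGGCGGC, of YY1, in 8 (10.7%) and 2.60%; and CCAAT in 34 (45.3%) and 41.1%. Any of the first 3 was in 30 genes (40.0%) and in 14.2% of all genes. A match describes letters and shows no binding. The genes of the table were not matched to the members in level, kind of gene or base composition. The stretches below run from 100 bases before to 10 after the start, on the minus strand, with the matches in capitals; they belong to members that rose with age (Cox8a, Uqcr11, Uqcrh, Atp5k, Sdha) and to Cox6b2, which fell.
Cox8a: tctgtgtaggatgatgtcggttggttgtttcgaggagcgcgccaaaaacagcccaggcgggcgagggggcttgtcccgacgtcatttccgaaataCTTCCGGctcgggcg
Uqcr11: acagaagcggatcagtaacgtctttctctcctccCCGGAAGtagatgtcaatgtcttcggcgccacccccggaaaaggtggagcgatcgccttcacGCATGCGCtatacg
Uqcrh: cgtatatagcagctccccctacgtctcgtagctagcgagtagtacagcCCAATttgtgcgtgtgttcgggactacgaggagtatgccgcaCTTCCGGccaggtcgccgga
Atp5k: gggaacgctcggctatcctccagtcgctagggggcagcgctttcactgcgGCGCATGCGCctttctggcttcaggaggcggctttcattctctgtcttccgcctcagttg
Sdha: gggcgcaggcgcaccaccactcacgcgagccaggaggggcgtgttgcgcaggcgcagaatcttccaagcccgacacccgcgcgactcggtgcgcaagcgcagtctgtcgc
Cox6b2: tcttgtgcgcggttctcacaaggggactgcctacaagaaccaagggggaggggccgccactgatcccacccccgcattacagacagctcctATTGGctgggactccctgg
They lie at chr19:7217607-7217716 (Cox8a), chr10:80406812-80406921 (Uqcr11), chr4:116075061-116075170 (Uqcrh), chr5:108434390-108434499 (Atp5k), chr13:74350231-74350340 (Sdha) and chr7:4753085-4753194 (Cox6b2). Cox8a held an ETS match across the start. Uqcr11 held an ETS match and, at the start, an NRF1 match, and Atp5k held 2 overlapping NRF1 matches, since its 10 bases read the same on both strands. Uqcrh held a CCAAT and an ETS match, Cox6b2 a CCAAT match on the other strand, and the stretch of Sdha none of the 4.

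Of 45 tested assembly factors for the 5 complexes, 28 were higher and 9 lower in P7 IP than in input (median 0.44), beside 18.6% of all genes higher and 51.1% lower. In the second week 15 of them rose and 13 fell (median 0.05), beside 26.7% and 22.8% of all genes. In the third 4 rose and 6 fell (median -0.02), beside 8.53% and 19.7%, so in the main fit the counts in both weeks were not far from those of all genes. With median-of-ratios scaling 12 rose and 2 fell in the third week, beside 14.4% and 12.0% of all genes. Over both weeks 16 of the 45 were higher and 18 lower (median -0.02), beside 27.3% and 32.6% of all genes. With median-of-ratios scaling these were 18 and 14. The largest rise was that of Cox17, the copper chaperone of complex IV. It had 105 and 114 TPM in input, 207, 237 and 282 at P7, 557, 499 and 490 at P14 and 1008, 990 and 885 at P21. Its change over both weeks was 2.00 ± 0.10 (adjusted p = 7.14e-08). The lowest change was that of Ndufaf6 (-0.75), with 42.2, 43.6 and 35.7 TPM at P7 and 24.9, 21.7 and 24.3 at P21. The citric acid cycle genes rose in the second week in 13 of 18 cases and 1 fell, while 2 rose and 7 fell in the third (4 and 3 with median-of-ratios scaling). Of 14 genes for electron carriers and metabolite exchange, 2 were higher and 9 lower in P7 IP than in input. With median-of-ratios scaling these were 7 and 6, beside 32.9% and 32.3% of all genes. In the second week 8 of the 14 rose and 3 fell, and in the third 2 rose and 1 fell.

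Among 14 tested regulators of mitochondrial genes, 1 was higher and 10 lower in P7 IP than in input, beside 18.6% and 51.1% of all genes. With median-of-ratios scaling these were 2 and 5, beside 32.9% and 32.3% of all genes. With quantile normalisation they were 5 and 5, beside 32.9% and 31.7%. Of these regulators 4 rose and 2 fell in the second week, beside 26.7% and 22.8% of all genes. In the third 1 rose and 2 fell, beside 8.53% and 19.7%. With median-of-ratios scaling 1 rose and none fell in the third week, beside 14.4% and 12.0%. Esrra, the oestrogen-related receptor alpha that binds many respiratory chain genes, had 27.6, 25.2 and 29.4 TPM at P7, 43.0, 43.7 and 43.8 at P14 and 60.1, 59.7 and 52.8 at P21 (1.04 ± 0.07 over both weeks, adjusted p = 2.99e-07). No 2 of its ages overlapped. Its coactivator Ppargc1a rose in the second week by 0.62 ± 0.12 and was -0.16 ± 0.12 in the third. Over both weeks 4 of the 14 regulators were higher and 4 lower (median 0.07), beside 27.3% and 32.6% of all genes. The lowest change over both weeks was that of Pprc1 (-0.58), and the lowest in the third week that of Gabpb1 (-0.30).

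The RNA of other cells in the pull-down also varied with age. Summed TPM of 5 oligodendrocyte markers was 22.2 to 24.5 at P7, 270 to 369 at P14 and 453 to 654 at P21, and 5 of 5 rose in each week. The 6 astrocyte markers summed to 36.8 to 56.5, 92.9 to 106 and 107 to 140 TPM, and the 6 mural and fibroblast markers to 8.38 to 17.4, 12.9 to 14.2 and 10.1 to 23.8. None of these defining markers was at 0 in every library, and their part in the members' changes was not tested.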

How the data were processed

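The deposited table holds the authors' TPM values for 77179 Ensembl gene IDs in 11 libraries. Salmon 1.10.0, fastp 1.0.1, DESeq2 1.46.0 and the build mm39 are named in the submitters' processing notes; their roles, the annotation release and the strand setting are not given there or elsewhere in the sources. TPM keeps no depth, so the depth per library is unknown, and a few abundant genes shift all other values. A table of Ensembl IDs gave 50886 symbols, and RefSeq (GRCm38.p6) gave newer symbols, biotypes, genomic spans and promoters.

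Members were matched by symbol. Left out were 8 Ndufaf genes, 9 symbols ending in -ps (among them Ndufb1-ps, 86.0 to 261 TPM, which RefSeq lists as a coding gene) and 5 RefSeq pseudogenes. Ndufb4 and Ndufb4c are near-identical, so the split of reads between them is uncertain. The members and the lists were chosen with earlier results of these data known.

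The 19008 genes that reached 1 TPM in 2 or more libraries entered a limma 3.58.1 fit (R 4.3.3) of log2(TPM + 1), with group means as the only terms, 7 residual degrees of freedom, a trend in the moderation and Benjamini-Hochberg adjustment over all genes. P-values measure the spread between libraries, and the age comparisons share libraries. The rule for named members took isoform families, complex II, the largest rise and fall of each complex in each comparison, and its most and least abundant genes. Values per library are printed for most but not all of these, and other members were chosen after their values were seen. Scalings of the pathway lists and subunit groups were added after seeing the data. The code was tested on simulated data. Alternatives were pseudocounts of 0.1 and 5 TPM, no filter, a mean of at least 5 TPM, 3 other scalings, no trend, a replicate block, only the groups compared, each library left out in turn, and other placements of Ndufa4, Uqcc genes and Atp5s. Values of 1 member are not reported here. Figures were drawn with matplotlib 3.10.9.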

Additional observations from a re-analysis of the deposited data

Results flagged for a closer look

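In 15 members the change in the last week (P14 to P21) differed from that in the week before, by the limma contrast of both steps, at adjusted p below 0.05 over all genes. It was negative in 12 of the 91 tested members and positive in 3, beside 16.8% and 7.46% of all genes. The difference (log2, later minus earlier week) was -0.71 for Ndufs1 and -0.36 for Ndufa10, and 0.26 for Ndufv1, the flavoprotein core subunit, in complex I. In complex II it was -0.42 for Sdha, -0.32 for Sdhc and -0.31 for Sdhd. In complex III it was -0.68 for Uqcr11 and -0.52 for Uqcr10. It was -0.99 for Cox6a2 in complex IV. In complex V it was -0.42 for Atp5b, -0.32 for Atp5a1, -0.34 for Atp5f1 and -0.48 for Atp5g1, and 0.50 for Atp5e. It was 0.65 for the assembly factor Uqcc2.

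With median-of-ratios scaling Ndufa10, Sdha, Sdhc, Sdhd, Uqcr10, Atp5a1, Atp5b and Atp5f1 no longer passed. Among single libraries, leaving out P14 IP replicate 1 ended the calls of Ndufa10, Sdhc, Ndufv1, Cox6a2 and Atp5b, P14 IP replicate 2 those of Ndufa10, Sdhc, Sdhd and Atp5b, and P14 IP replicate 3 those of Ndufv1 and Cox6a2. Ndufa10 and Sdhc were also lost without either input library, P7 IP replicate 3 or P21 IP replicate 2, Ndufa10 without P21 IP replicate 1 and Sdhc without P21 IP replicate 3. Groups here have 2 or 3 libraries, so single libraries far from their group were not looked for by rule.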

How the results depend on the processing

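Counts of members are out of those tested. In IP against input 4 members were lower with median-of-ratios scaling and 25 with quantile normalisation. In the second week 1 fell with a pseudocount of 0.1 TPM, 1 with no filter, 5 with median-of-ratios scaling and 6 with quantile normalisation. In the third week 53 rose and 3 fell with median-of-ratios scaling; over both weeks 12 fell with quantile normalisation; for unequal steps 7 were positive and 4 negative with median-of-ratios scaling. With Uqcc genes and Atp5s counted as subunits, complex III had 4 risers in the third week and 1 positive unequal step, and complex V 1 gene lower over both weeks. Leaving out single libraries gave 53 to 59 higher and 11 to 14 lower in IP against input, 42 to 50 and 1 to 3 in the second week (1 without P7 IP replicate 3, P14 IP replicate 1 or P14 IP replicate 2), 25 to 36 and 3 to 6 in the third (3 without P21 IP replicate 2), 59 to 63 and 4 to 6 over both weeks, and 2 to 4 and 8 to 13 for unequal steps. Directions turned, for IP against input, with quantile normalisation in Cox4i1 (-0.004), Cox7b (-0.06), Ndufa4 (-0.22), Atp5g1 (-0.039), Ndufb10 (-0.255), Sdhd (-0.09), Cyc1 (-0.053), Atp5f1 (-0.182), Ndufb6 (-0.02), Ndufs7 (-0.148), Cox5a (-0.267), Atp5c1 (-0.203), Atp5d (-0.232) and Atp5h (-0.182), and with median-of-ratios scaling in Ndufc2 (0.145), Uqcrc1 (0.077), Uqcrc2 (0.172), Uqcrfs1 (0.128), Ndufa11 (0.366), Ndufa9 (0.231), Ndufb3 (0.336), Ndufs3 (0.19), Ndufv1 (0.318), Atp5a1 (0.123), Atp5b (0.361) and Dmac2 (0.337). With quantile normalisation so did Uqcr11 in the third week (-0.054) and Atp5o over both weeks (-0.124). The cause was not tested. Same-numbered libraries correlated in their deviations by 0.012 to 0.177, and differently numbered ones by -0.123 to 0.102. The ranges overlapped, the labels name no pairs, and the main fit took none. With a replicate block 56 members were higher in IP and 13 lower, and 51 rose in the second week. TPM keeps no depth, which limits what can be said of genes of few TPM such as Cox4i2, Cox7b2 and Cox8b.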
